A study of Mus musculus with 6 samples.

Results

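The genes described here are 3 FOXO transcription factors, Foxo1, Foxo3 and Foxo4, and 7 genes known as FOXO targets that AKT signalling restrains, namely Irs1, Irs2, Sesn1, Sesn2, Sesn3, Cited2 and Bcl2l11. They were chosen by symbol, with earlier results of these data known. Each was read from the probe set that carries that symbol alone, taking the brighter where a gene had more than 1. All 10 were measured, of 19939 named genes in all. They were followed in Melan-Ink4a, a melanocyte line from C57BL/6J mouse skin with the genotype Ink4a-ARF1 null, so the treated and the untreated cells both lacked that tumour suppressor locus. In 1 group, called NRG1 below, the cells received 10 nM of NRG1-b1, a form of the growth factor neuregulin 1, for 21 days, and the other group was untreated, with no matching culture time given in the labels. Both groups grew at 10% CO2 in medium with 10% fetal bovine serum, 200 nM of the phorbol ester TPA (12-O-Tetradecanoylphorbol 13-acetate) and 200 pM of cholera toxin. RNA was collected at 90% confluence. Each group has 3 Affymetrix mouse arrays of 1 cell line, and whether the 3 came from separate cultures is not stated, so the p-values reflect array-to-array spread that may be purely technical.

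FOXO factors are forkhead proteins that switch on genes of cell cycle arrest, cell death, stress resistance and nutrient economy. Growth factor receptors such as the NRG1 receptor ERBB3 activate PI3K and then AKT, and AKT phosphorylates FOXO proteins, which are then held by scaffold proteins of the Ywha family and leave the nucleus. Several targets feed back on the pathway. IRS proteins carry signals from insulin and IGF1 receptors to PI3K, sestrins restrain the growth kinase complex mTORC1, CITED2 competes for the coactivators CBP and EP300, and BIM, the product of Bcl2l11, starts mitochondrial cell death. An array measures transcripts only, so phosphorylation and the location of FOXO proteins are not seen here.

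The promoters of 4 members are shown because they hold a short match to a FOXO motif. The reference table, from RefSeq with assembly GRCm38.p6, gave 11 windows for 9 of the 10 members, each from 250 bases before to 50 bases after a transcript start. The motifs searched on both strands were GTAAACA, the classic FOXO recognition letters, CAAAACA, the core of the insulin response element, and CACGTG, the E-box letters bound by MITF and its relatives, which reads the same on both strands. Capitals mark the matches, and the opposite-strand forms read TGTTTAC and TGTTTTG. For Irs1 (chr1:82291440-82291589, minus strand) and Irs2 (chr8:11008930-11009079, minus strand) the 150 bases just before the start are given. For Bcl2l11 (chr2:128125788-128125937, plus strand) they are the first 150 bases of the upstream of its 2 windows. For Sesn1 (chr10:41810586-41810615, plus strand) 30 bases around the match are given.
Irs1: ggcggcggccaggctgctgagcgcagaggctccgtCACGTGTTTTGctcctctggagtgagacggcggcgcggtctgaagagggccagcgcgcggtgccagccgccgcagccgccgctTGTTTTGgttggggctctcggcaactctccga
Irs2: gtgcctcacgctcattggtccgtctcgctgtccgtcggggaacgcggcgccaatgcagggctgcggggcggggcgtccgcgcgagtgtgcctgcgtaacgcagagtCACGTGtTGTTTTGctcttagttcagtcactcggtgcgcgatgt
Bcl2l11: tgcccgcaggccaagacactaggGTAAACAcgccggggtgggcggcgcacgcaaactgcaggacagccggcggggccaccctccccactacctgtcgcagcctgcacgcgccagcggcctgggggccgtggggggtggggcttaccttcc
Sesn1: aaccttctacTGTTTACcagccttttggga

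The promoters of Irs1 and Irs2 shared an arrangement of letters. In Irs1 the E-box began 115 bases before the start and overlapped the CAAAACA match next to it by 2 bases, with a second such match 32 bases before the start. In Irs2 the E-box began 44 bases before the start and was separated from the CAAAACA match by 1 base. Both motifs stood in the same window, at any distance, in 0.408% of the 32851 windows of the table, CAAAACA in 6.28% and CACGTG in 7.15%. The share of windows with the 2 motifs as close as in Irs1 and Irs2 was not computed. GTAAACA stood in 3.65% of all windows and in 2 of the 11 member windows, beginning 227 bases before the start in Bcl2l11 and 23 bases into the transcript in Sesn1. Cited2 held an E-box 153 bases before its start, and the windows of Foxo1, Foxo3, Sesn2 and Sesn3 held none of the 3 motifs. The member windows were 61.3% to 75% G and C, against a median of 52.7% over all windows. These matches are descriptions of the letters, and no binding was measured.

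Of the 10 members, 3 rose and 4 fell with NRG1, and 3 were not called. The words rose and fell are used of genes whose limma p stayed under 0.05 after Benjamini-Hochberg adjustment over all 19939 genes, and such genes are named as called. Over all genes 12.3% rose and 8.56% fell by that rule. The 3 NRG1 arrays lay wholly above or below the 3 untreated arrays in 9 of the 10 members, and in 36.7% of all genes. The median absolute change of the members was 0.40 on the log2 scale, against 0.10 over all genes, and no member changed by 2-fold. As the members were chosen with earlier results of these data known, these comparisons with all genes do not test them as a set. All values are array signals on the log2 scale, and every change is NRG1 minus untreated. The members had mean signals from 7.94 to 10.41, above the array medians of the tested genes, which ran from 7.11 to 7.19.

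**Figure D1:**
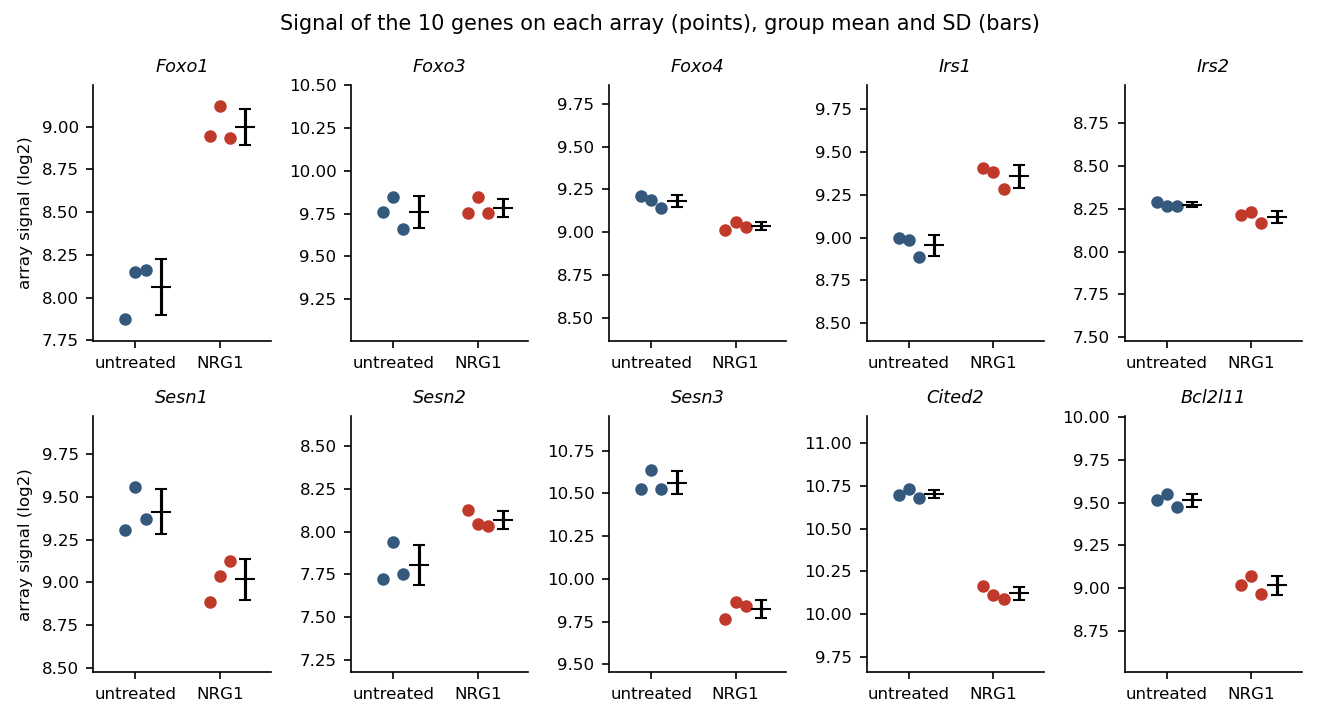
Array signal (log2, vertical axes, each spanning the same range of 1.5 units) of the 10 genes on the 3 untreated (blue) and 3 NRG1 (red) arrays, with the group mean and SD as bars. Foxo1, Irs1 and Sesn2 lie higher with NRG1, and Sesn1, Sesn3, Cited2 and Bcl2l11 lie lower, without overlap, while the Foxo3 points overlap.

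Among the FOXO factors the call fell on Foxo1 alone, which rose. Foxo1 stood at 8.94, 9.12 and 8.93 on the NRG1 arrays and at 7.87, 8.15 and 8.16 on the untreated arrays. The lowest NRG1 array was 0.77 above the highest untreated one, a gap wider than the spread within either group. The rise was 0.94 ± 0.089 (SE) on the log2 scale, or 1.91-fold (limma, adjusted p = 3.61e-05), and 345 of the 19939 genes had a more positive change. Foxo1 encodes the FOXO protein best known for control of glucose metabolism and of cell identity, and it was the largest change of the 10 in either direction.

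Foxo3, the family member best known for quiescence and cell death programmes, stood at 9.75, 9.85 and 9.75 with NRG1 and at 9.76, 9.85 and 9.66 without. The groups overlapped almost completely. Its difference was 0.027 with a 95% interval from -0.12 to 0.18 (limma, adjusted p = 0.836). Foxo4 was at 9.01, 9.06 and 9.03 with NRG1 and at 9.21, 9.19 and 9.14 without. Those groups did not overlap, but the gap between them was 0.08, and the difference of -0.15 (95% interval -0.27 to -0.018) did not pass (limma, adjusted p = 0.107). It was called in 4 of 15 alternative settings, quantile normalization among them (-0.18, adjusted p = 0.0336, in a range from 0.0267 to 0.287). Foxo6, the remaining gene of the family and not one of the 10, had a low mean signal of 6.65 with NRG1 and 6.74 without, at -0.092 (limma, adjusted p = 0.54). Single arrays moved that value, to -0.023 without untreated replicate 1 and to -0.20 without untreated replicate 2, the 1 of 14 settings that called it (adjusted p = 0.0451, in a range from 0.0451 to 0.918).

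Of the insulin receptor substrate genes, Irs1 rose and Irs2 was not called. Irs1, whose product docks PI3K at activated insulin and IGF1 receptors, stood at 9.41, 9.38 and 9.28 with NRG1 and at 9.00, 8.99 and 8.89 without. All NRG1 values were higher, and the rise was 0.40 ± 0.064 (SE), or 1.32-fold (limma, adjusted p = 0.0012). Irs1 was the 1 member with another probe set of its own, at 6.17, 5.94 and 6.02 with NRG1 and at 5.68, 5.58 and 5.30 without. That dimmer set also separated the groups, with a difference of 0.52. Irs2, the docking protein gene that FOXO1 is known to induce in fasting liver, was at 8.21, 8.23 and 8.16 with NRG1 and at 8.29, 8.27 and 8.26 without. The NRG1 arrays were lower by a margin of only 0.033 between the nearest arrays. Its difference was -0.071 with a 95% interval from -0.20 to 0.056 (limma, adjusted p = 0.446).

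The 3 sestrin genes, which encode stress-inducible inhibitors of mTORC1, went in both directions. Sesn3, the sestrin most closely tied to FOXO factors, was at 9.77, 9.86 and 9.84 with NRG1 and at 10.53, 10.64 and 10.52 without. Every NRG1 array lay at least 0.66 below every untreated one. The fall was the steepest of the 10 members, at -0.74 ± 0.063 (SE), which leaves 0.599 of the untreated signal (limma, adjusted p = 1.61e-05). A more negative change was found in 155 of the 19939 genes.

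Sesn1, a target of p53 as well as of FOXO factors, stood at 8.89, 9.04 and 9.12 with NRG1 and at 9.31, 9.56 and 9.37 without. The groups were apart by 0.18, less than the range within each. It fell by 0.40 on the log2 scale (SE 0.085; limma, adjusted p = 0.00742). Sesn2, known to be induced by p53 and by the stress factor ATF4, was at 8.13, 8.04 and 8.03 with NRG1 and at 7.73, 7.94 and 7.75 without. Untreated replicate 2 was the nearest to the NRG1 arrays, from which it was apart by 0.092. The rise of 0.26 ± 0.072 (SE) passed (limma, adjusted p = 0.0268), but 7 of 15 alternative settings did not call it, in a range from 0.00232 to 0.113. Leaving out NRG1 replicate 1 (adjusted p = 0.0969), 2 (0.0573) or 3 (0.0544), or untreated replicate 1 (0.113) or 3 (0.0849), ended the call, and with untreated replicate 2 left out the adjusted p was 0.00669. Without Sesn2, 2 of the 10 members rose.

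Cited2 and Bcl2l11 both fell. Cited2, a transcriptional coregulator gene that FOXO3 is known to induce, stood at 10.16, 10.11 and 10.09 with NRG1 and at 10.70, 10.73 and 10.68 without. The arrays of each group lay within 0.077 of each other, while the groups were 0.52 apart. The fall was -0.58 ± 0.058 (SE; limma, adjusted p = 4.71e-05), to 0.668 of the untreated signal. Bcl2l11, the gene of the death inducer BIM, was at 9.01, 9.07 and 8.96 with NRG1 and at 9.51, 9.55 and 9.47 without. The fall was -0.50 ± 0.06 (SE; limma, adjusted p = 0.000192), to 0.709 of the untreated signal. The groups were separated by 0.40, against a range of 0.11 within the NRG1 arrays.

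**Figure D2:**
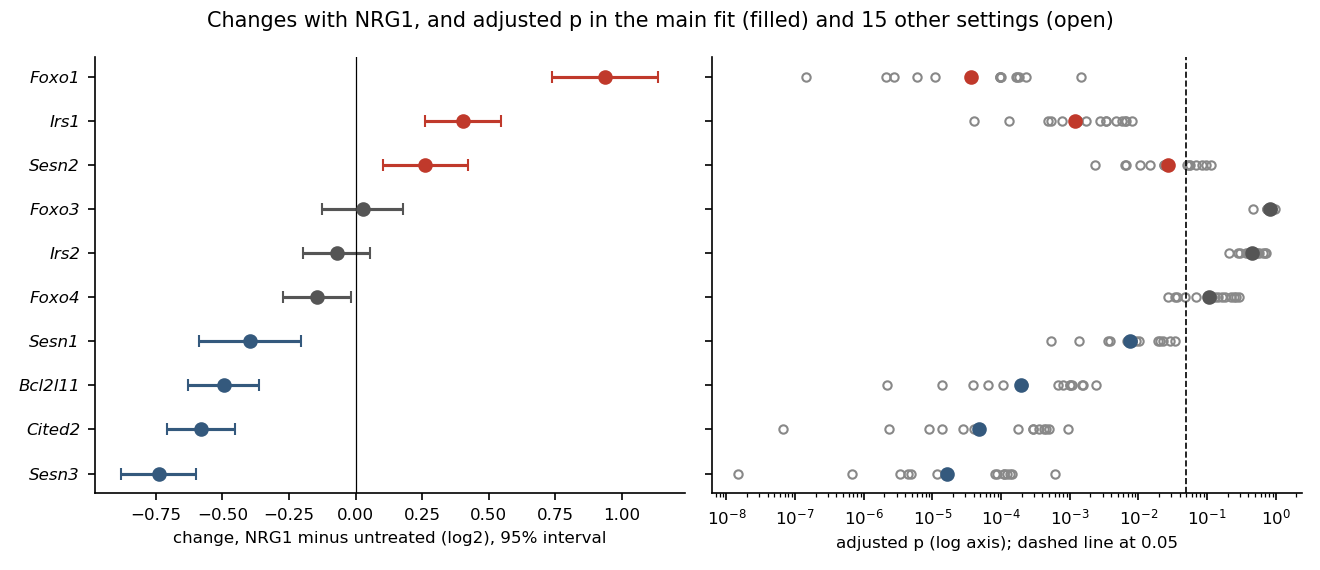
Left, change of each gene with NRG1 (log2) and its 95% interval, red where it rose, blue where it fell and grey where it was not called. Right, adjusted p on a log axis in the main analysis (filled) and in the 15 alternative settings (open), with the threshold of 0.05 dashed. The open points of Sesn2 and Foxo4 lie on both sides of the line, and those of Foxo1, Irs1, Sesn1, Sesn3, Cited2 and Bcl2l11 lie left of it.

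The gaps between the changes of close relatives are given as values, since no pair could pass the test. For 7 pairs of relatives the log2 difference between both genes was taken on each array, which gives the gap between their changes, and in all 7 pairs the 3 NRG1 arrays lay apart from the 3 untreated ones. Single genes separated the groups in 36.7% of all genes tested, and the share over other pairs of genes was not computed. The exact permutation test (2-sided) gave p = 0.1 for each, the smallest p that 3 arrays against 3 allow, and 0.1 after adjustment over the 7 pairs. The change of Foxo1 exceeded that of Foxo3 by 0.91 ± 0.116 (SE, n = 3 each) and that of Foxo4 by 1.08 ± 0.121. Foxo3 and Foxo4 differed by 0.17 ± 0.047. Irs1 exceeded Irs2 by 0.47 ± 0.038, with a 95% interval from 0.37 to 0.58. Sesn2 and Sesn3 differed by 1.00 ± 0.066, the widest gap among the sestrins. Sesn1 lay 0.66 below Sesn2 (95% interval of the difference -0.94 to -0.38) and 0.34 ± 0.063 above Sesn3. These 3 sestrin gaps share genes with each other, as do the 3 FOXO gaps.

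**Figure D3:**
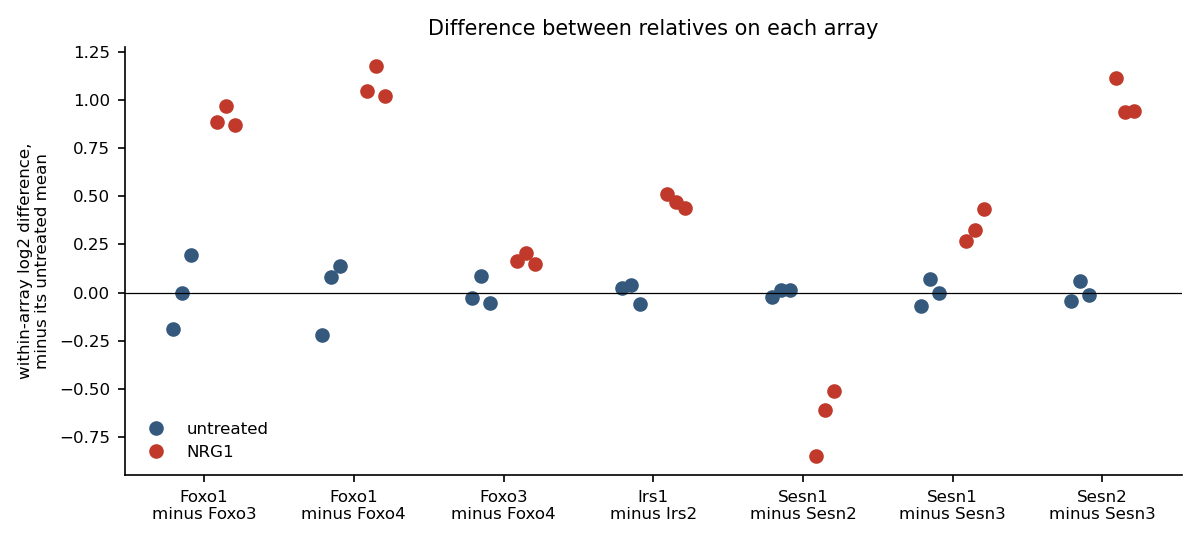
For each pair of related genes, the log2 difference between them on each array (points, blue untreated and red NRG1), shown relative to the mean difference on the untreated arrays. Red and blue points are apart in all 7 pairs, by the widest margins for Foxo1 against Foxo4 and Sesn2 against Sesn3.

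As a description of the array profiles, the genes most like each FOXO factor were named by Pearson's r over the 6 arrays, which fall into the same 2 groups for every gene. For Foxo1 these were Vangl2 (r = 0.998) and Atxn10 (r = 0.997), with rises of 0.62 and 0.24 on the log2 scale. For Foxo4 they were Rnf146 (r = 0.997) and 3830406C13Rik (r = 0.995), at -0.38 and -0.41. Foxo3, whose groups overlapped, was most like Dhx30 (r = 0.980) and Hp1bp3 (r = 0.976), at 0.024 and 0.026.

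Beyond the members, 48 of 49 further genes known as FOXO targets were measured, of which 9 rose, 11 fell and 28 were not called. Their median change was -0.022, against -0.029 over all genes, of which 12.3% rose and 8.56% fell. In the group for cell cycle and DNA damage 4 of 12 rose and 3 fell. Ccnd1, the cyclin D1 gene that FOXO factors are known to repress, rose 2.87-fold (limma, adjusted p = 2.58e-07), and Ccnd2, which they also repress, rose by 0.49. Gadd45b, a stress sensor gene, rose by 0.58. The falls were those of Rbl2, which encodes the quiescence pocket protein p130 (-0.51), the antiproliferative Btg1 (-0.50) and the CDK inhibitor gene Cdkn1b (-0.39 ± 0.057, SE; limma, adjusted p = 0.000669). Cdkn1b, whose product p27 is a textbook FOXO output, stood at 9.94, 10.00 and 9.97 with NRG1 and at 10.33, 10.38 and 10.37 without. Cdkn1c, also a CDK inhibitor gene, went the other way and rose by 0.23 (limma, adjusted p = 0.0213). A further one, Cdkn1a, was not measured.

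Among 9 targets tied to death and survival, 3 rose and 1 fell. Bnip3, a mitochondrial receptor gene also induced in hypoxia, rose by 1.69, the pseudokinase gene Trib2, whose product restrains FOXO3, by 0.82, and the repressor gene Bcl6 by 0.38, while Trib1 fell by 0.32. The death ligand genes Fasl and Tnfsf10 had low signals, near 5 in both groups, and were not called. Of 14 targets in metabolism and among receptors, 2 rose and 3 fell. Pdk4, which encodes a kinase that spares glucose, fell from 7.91 ± 0.096 to 6.84 ± 0.079 (SD, n = 3 each), by 2.10-fold (limma, adjusted p = 2.76e-06). The glucose-responsive Txnip fell by 0.34 and the insulin receptor gene Insr by 0.23, whereas Ddit4, an mTORC1 inhibitor gene, rose by 0.43 and Trib3 by 0.32. The Insr call (limma, adjusted p = 0.0451) held in 7 of 15 settings, whose adjusted p spanned 0.00842 to 0.162, and ended without NRG1 replicate 1 or 3 or any 1 of the untreated replicates, with adjusted p from 0.0626 to 0.162 in those 5 fits. Erbb3, the NRG1 receptor gene and itself a FOXO target, was at 0.15 (limma, adjusted p = 0.105). Of 15 settings 3 called it, namely those without the genes below the median signal (0.0352), with an intensity trend (0.0129) and with array weights (0.0227), where the full range reached 0.292. Of 13 targets in protein turnover and oxidative stress, 0 rose and 4 fell at the adjusted threshold, against 1 and 5 at an unadjusted limma p under 0.05. The selenium carrier gene Selenop fell by 0.83, the autophagy gene Gabarapl1 by 0.47 and the ubiquitin ligase gene Fbxo32, known from muscle wasting, by 0.37, while Sod2, the mitochondrial superoxide dismutase gene, was at 0.18 (limma, adjusted p = 0.101) and was called in 4 of 15 settings, among them without untreated replicate 2 (0.0284, in a range from 0.0222 to 0.276).

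Of 30 measured genes in the core of the PI3K-AKT pathway, 5 rose, 7 fell and 18 were not called, with a median of 0.005. The shares over all genes were 12.3% that rose and 8.56% that fell. Deptor, an inhibitor gene of the mTOR complexes, rose 2.33-fold (limma, adjusted p = 8.65e-07), Rheb, which encodes the GTPase that activates mTORC1, rose by 0.41, and the PI3K regulatory subunit gene Pik3r1 by 0.36. Akt1 rose by 0.26 (limma, adjusted p = 0.0195), but 5 of 15 settings, which spanned 0.00127 to 0.0832, did not call it, among them the fits without NRG1 replicate 1 (0.0757) or 2 (0.0533) and without untreated replicate 1 (0.0832) or 3 (0.0664). Akt2 was at 0.063 (limma, adjusted p = 0.567). The steepest falls were those of 2 lipid phosphatase genes, Inpp4b (-0.78 ± 0.06, SE; limma, adjusted p = 8.72e-06) and Inpp5k (-0.47), and of Phlpp1 (-0.38), which encodes a phosphatase that inactivates AKT. Inpp4b stood at 8.71, 8.75 and 8.81 with NRG1 and at 9.55, 9.56 and 9.48 without. Inppl1, also a lipid phosphatase gene, rose by 0.26 (limma, adjusted p = 0.00915). The remaining falls were those of the PI3K subunit genes Pik3cb (-0.35) and Pik3r3 (-0.30), the kinase gene Sgk3 (-0.30) and Tsc1 (-0.21).

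Of 25 measured genes whose products act on FOXO proteins, 10 rose, 4 fell and 11 were not called, with a median of 0.12. By the same rule 12.3% of all genes rose and 8.56% fell. Xpo1, the exportin gene through which FOXO proteins leave the nucleus, rose from 9.33 ± 0.078 to 9.83 ± 0.063 (SD, n = 3 each), by 0.50 (limma, adjusted p = 0.000337). Among 6 measured Ywha genes, 4 rose, with Ywhag at 0.42, Ywhaz and Ywhae both at 0.35 and Ywhab at 0.28, while Ywhah (0.10) and Ywhaq (0.12) were not called. The kinase genes Mapk9 and Mapk8 both rose by 0.41, and Skp2, a ubiquitin ligase gene for FOXO1, by 0.40. Usp7 (limma, adjusted p = 0.00306) and Prmt1 (adjusted p = 0.00871) each rose by 0.34. Sfn, a relative of the Ywha genes in the same list, was at -0.002 and not called. The falls were those of Cdk2 (-0.56), the deacetylase genes Sirt1 (-0.30) and Sirt2 (-0.22), and Stk4 (-0.25), a stress kinase gene. Cdk2 lies within the span of the melanosome gene Pmel in RefSeq, and Pmel fell by 0.64, so the Cdk2 signal is uncertain. The Sirt2 call held in 8 of 15 settings (adjusted p from 0.00245 to 0.104) and ended without NRG1 replicate 1 (0.0744) or 3 (0.104) or untreated replicate 2 (0.052) or 3 (0.0737). The Sirt1 call ended without NRG1 replicate 1 (adjusted p = 0.0657) and that of Stk4 without NRG1 replicate 3 (0.0606) or untreated replicate 1 (0.0622). Without NRG1 replicate 1, as without NRG1 replicate 3, 2 of the 25 fell.

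In the list for insulin and IGF receptor signalling, which includes Irs1, Irs2 and Insr, 6 of 21 measured genes rose and 2 fell. Over all genes 12.3% rose and 8.56% fell. The adaptor gene Grb14 rose by 0.61 (limma, adjusted p = 7.28e-05), Igf2r, a scavenger receptor gene for IGF2, by 0.56, and the docking protein gene Gab1 by 0.51. Sos1, which encodes an activator of RAS, fell by 0.60 (limma, adjusted p = 5.89e-05), and the IGF1 receptor gene Igf1r was at -0.056 (limma, adjusted p = 0.621). Without NRG1 replicate 1 or 3, or any 1 of the untreated replicates, 1 gene fell.

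Among 30 genes of sestrin partners and lysosomal amino acid sensing, 4 rose, 2 fell and 24 were not called. These counts lie close to the shares over all genes, 12.3% that rose and 8.56% that fell. Mios and Sec13, which encode subunits of the GATOR2 complex that sestrins bind, rose by 0.72 (limma, adjusted p = 1.91e-05) and 0.41. Srxn1, the sulfiredoxin gene, rose by 0.25, a call that ended in 6 of 15 settings, among them without NRG1 replicate 1 (limma, adjusted p = 0.127) or 2 (0.0661) and without untreated replicate 1 (0.11) or 3 (0.0999). Rragd, a Rag GTPase gene of the lysosome, fell by 0.48, and Fnip1, which encodes a partner of folliculin, by 0.34. Without NRG1 replicate 1 or 2, or untreated replicate 1 or 3, 2 genes rose.

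Among 14 measured BH3-only genes, their antagonists and partners, Bcl2l11 was the 1 gene that fell, and 3 rose. Of all genes 8.56% fell and 12.3% rose. Bid, another gene of a death inducer, rose by 0.54 (limma, adjusted p = 0.00218), Bcl2l1, which encodes the survival protein BCL-XL, by 0.44 (adjusted p = 0.000361) and Dynll1, whose product tethers BIM to the cytoskeleton, by 0.31. The p53 target genes Bbc3 and Pmaip1 were at -0.093 and -0.10 and not called. Bcl2, also a survival gene, was at -0.20, with groups that did not overlap, and was not called (limma, adjusted p = 0.0557). Without NRG1 replicate 3, 2 genes of this list fell.

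Of 13 genes of the CITED family and of CITED2 partners, 3 rose and 4 fell, with a median of -0.11. Cited2 itself is in this list and is 1 of the 4. Over all genes 12.3% rose and 8.56% fell. Hif1a, the hypoxia factor gene whose coactivator CITED2 competes for, rose from 9.70 ± 0.067 to 10.24 ± 0.005 (SD, n = 3 each), by 0.54 (limma, adjusted p = 0.000102), opposite to Cited2. Smad3 and Smad2, which encode transducers of TGF-beta signals, rose by 0.32 and 0.22. Tfap2b (-1.20) and Tfap2a (-0.25), which encode AP-2 factors that CITED2 assists, fell, and Epas1, the HIF2 gene, fell by 0.34. The coactivator genes Crebbp and Ep300 were at -0.12 and -0.15, and Cited1, known from melanocytes, at -0.084, none of them called. Without untreated replicate 1, when the calls of Smad3 (adjusted p = 0.0612) and Smad2 (0.107) ended, 1 gene of this list rose. The Smad3 call also ended without NRG1 replicate 2 (0.0536), and that of Smad2 without NRG1 replicate 1 (0.106) or 3 (0.0742) and without untreated replicate 3 (0.0830). That of Tfap2a ended without NRG1 replicate 1 (0.0618) or untreated replicate 1 (0.0547).

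**Figure D4:**
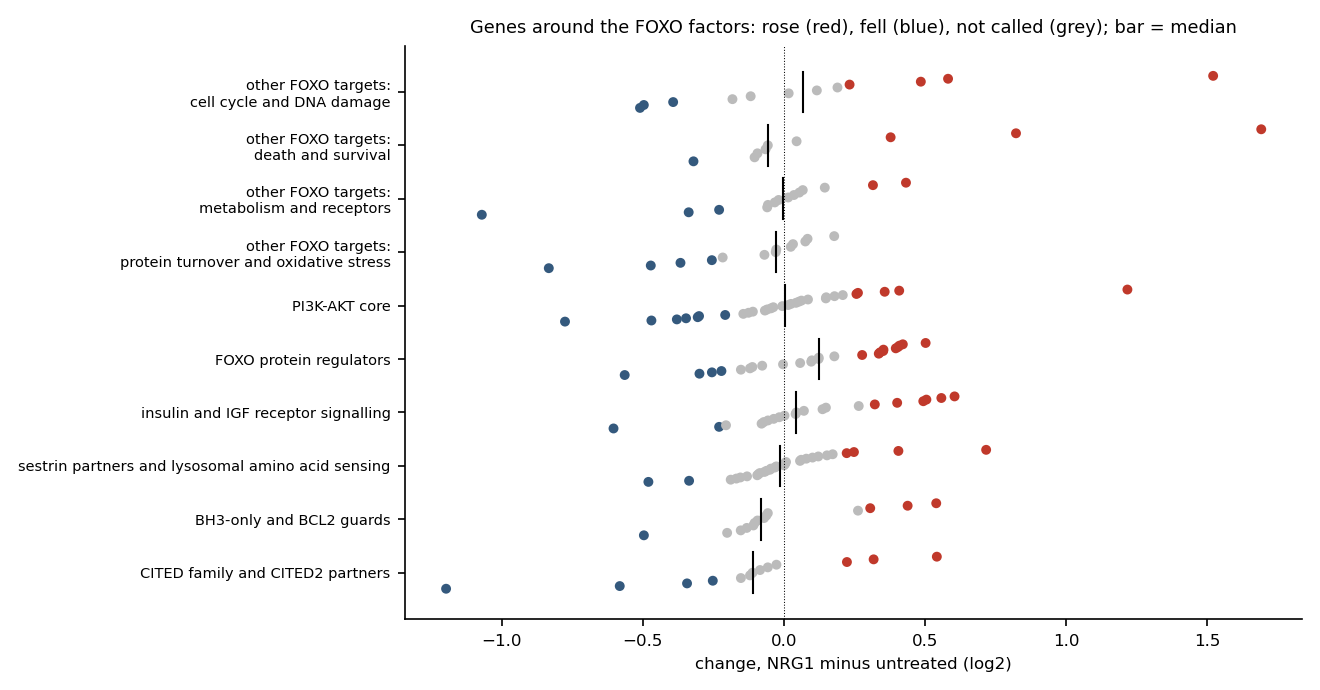
Change with NRG1 (log2, horizontal axis) of each measured gene in 10 lists around the FOXO factors, 1 point per gene, red where it rose, blue where it fell and grey where it was not called, with the list median as a bar. Every list median lies within 0.13 of 0, and 9 of the 10 lists hold genes that rose beside genes that fell.

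The labelled cell type matched its markers. The 13 melanocyte markers had mean signals from 7.92 to 13.76 with NRG1 and from 9.12 to 13.99 without, and 12 of them fell, at a median of -0.53. The summed log2 signal of these markers was 143.4 to 143.9 on the NRG1 arrays and 153.5 to 154.0 on the untreated arrays. Of 37 measured markers of keratinocytes, fibroblasts, Schwann cells, leukocytes and endothelium, 4 rose and 1 fell, against 12.3% and 8.56% of all genes. These were Col1a1 at 0.86, Cdh19 at 0.38, Gfap at 0.24, Cd68 at 0.23 and Cdh1 at -0.45. Col1a1 was the 1 fibroblast marker called, the other 7 were not, and the median change of the fibroblast list was -0.13. The Gfap call held in 7 of 14 settings (adjusted p from 0.0113 to 0.142) and ended without any 1 NRG1 replicate or without untreated replicate 2 or 3. That of Cd68 held in 10 of 15 (0.00765 to 0.13) and ended without NRG1 replicate 1 or 3 or untreated replicate 2 or 3. The mean signal over the 6 arrays was above the highest array median (7.19) for 0 of 8 keratinocyte markers, 2 of 8 fibroblast markers, 3 of 6 Schwann cell markers, 1 of 7 leukocyte markers and 1 of 8 endothelial markers. The highest in these lists were at 6.95, 8.62, 11.07, 7.62 and 7.25 in that order. Summed signals overlapped between the groups in the fibroblast and leukocyte lists. They lay apart for keratinocytes (47.81 to 48.19 with NRG1 and 48.47 to 49.73 without), Schwann cells (49.92 to 50.26 and 49.70 to 49.87) and endothelium (47.84 to 48.18 and 48.23 to 49.34). In these 3 lists 1 keratinocyte marker fell, 2 Schwann cell markers rose and 0 endothelial markers were called. Single genes separated the groups in 36.7% of all genes, and the share over sums of other genes was not computed. Whether these signal differences have a part in the changes of the 10 members was not tested. In RNA from a whole culture, fewer cells of a kind and less RNA per cell cannot be told apart.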

How the data were processed

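RNA from 6 samples, 3 with NRG1 and 3 untreated, was measured on 1 array each, from 200 ng of total RNA per the labels. The authors deposited log2 signals per probe set, and RMA and GCOS are named in the submitters' processing notes, with versions and settings not given in the sources used here. Values of 2.34 to 14.6 set the scale as log2. RMA usually shrinks differences near background and near saturation. Arrays have no read depth, and 3 per group limit the precision (median SE of a change 0.071).

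Of 35557 probe sets, 21789 had 1 gene, 1621 had several and 12147 were unnamed here. Symbols were updated by Entrez number to RefSeq (GRCm38.p6, 21698 matched), and the brightest probe set per gene was tested, giving 19939 genes. Groups came from the titles, and 0 value columns lacked a sample. limma 3.58.1 in R 4.3.3 (lmFit, eBayes, 2 groups, 2-sided) was used, with Benjamini-Hochberg adjustment over all genes at 0.05. On 10 simulated sets with 200 changed genes among 19939, changes of 1 on the log2 scale were recovered in 97.9% and of 0.5 in 72% of cases, with 3.74% of calls false. The simulated noise was independent between genes, and the real data had 4168 called genes, so these rates may not carry over to them. The 95% intervals are not adjusted.

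The members and lists were chosen with earlier results of these data known. Beside the members, the text names up to 3 called genes per list and direction, and the 2 genes most like each FOXO factor. It also names the family and receptor genes Foxo6, Insr, Igf1r, Akt1, Akt2 and Erbb3 and, after their values were seen, further list genes. Alternatives were quantile normalization, median centring, leaving out genes below the 25th percentile or below the median of mean signal, averaging probe sets, testing all probe sets, a robust prior with an intensity trend, weighting of arrays, the replicate block and leaving out each array.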

Additional observations from a re-analysis of the deposited data

How the results depend on the processing

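Over 15 alternative settings, Foxo1, Irs1, Sesn1, Sesn3, Cited2 and Bcl2l11 kept their direction and their call in all 15, and Irs2 stayed uncalled and lower. Of 150 member values, 136 kept direction and side of the threshold. Foxo3 turned to -0.022 with quantile normalization, -0.004 without NRG1 replicate 2 and -0.021 without untreated replicate 3, with a highest value of 0.073 without untreated replicate 2, and Igf1r turned to 0.0104 with array weights. Fasl turned to -0.023 without untreated replicate 1. Its highest value with 1 array left out was 0.104, without untreated replicate 2, and over all settings 0.127. Members that rose numbered 2 to 3 and members that fell 4 to 5, and the 7 gaps between relatives kept their sign in 8 settings each. The genes that rose in the PI3K-AKT core numbered 8 without the genes below the median signal and with an intensity trend, and 9 with array weights, against 5. With all probe sets tested, 2 FOXO regulators fell, 1 insulin and IGF gene fell and 2 sestrin partner genes rose. Median centring and the replicate block also left 1 insulin and IGF gene that fell. Sestrin partner genes that fell numbered 4 with quantile normalization or an intensity trend and 5 without the genes below the median signal. BH3-only genes and partners that fell numbered 2 with quantile normalization, without the genes below the 25th percentile or with an intensity trend, and 3 without those below the median or with array weights. With single arrays left out, the counts ran from 2 to 4 for FOXO regulators that fell, 1 to 2 for insulin and IGF genes that fell, 2 to 5 for sestrin partner genes that rose, 1 to 2 for BH3-only genes and partners that fell, and 1 to 3 for CITED genes that rose. The shared replicate numbers showed no clear pairing of the samples. Over genes, deviations from the group mean correlated at -0.095, -0.16 and 0.074 for numbers 1, 2 and 3. For unlike numbers the values ran from -0.20 (NRG1 1 with untreated 3) to 0.25 (NRG1 1 with untreated 2). With 3 arrays per group, whose deviations cancel out within each gene, this cannot exclude pairing. With the replicate block, Sesn2, the 1 member whose call it changed, was at adjusted p = 0.0515 and 2 members rose. Small changes limit what 3 arrays show, as do signals below the array medians, such as those of Foxo6 and, lower still, Fasl. The background level was not estimated.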
